A study of Mus musculus with 2 samples.

Results

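Among leukocytes sorted from the pancreatic islets of NOD mice, 96 cell barcodes carried macrophage and plasma-cell transcripts together. They were 96 of the 22466 barcodes past the filters and of 24413 in all. A barcode, the DNA tag of 1 droplet, was a member when it held at least 500 genes and at most 10% mitochondrial transcripts, and met 3 further conditions. It held at least 5 unique molecules (UMIs) of C1qa, C1qb and C1qc together, at least 1 UMI of Csf1r, Adgre1 and Cd68 together, and at least 10 UMIs of Jchain. The WT NOD library gave 23 members, and 73 came from the library labelled NOD.Cxcl16-/-. These genes chose the members, so their levels and those of the other plasma-cell genes against macrophage barcodes are descriptions, and nothing is read from them being high.

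The 2 groups were NOD mice, the inbred strain that develops autoimmune diabetes, and NOD.Cxcl16-/- mice, NOD animals labelled as lacking the chemokine Cxcl16. Both were female and 12 weeks old. Islets were freed with collagenase and picked by hand, then dispersed without enzymes, and live CD45+CD31- cells were sorted for droplet sequencing of 3' transcript ends. Each group was 1 library, whether animals were pooled is not given in the sources used here, and no difference between the libraries has a replicate check. Intervals below are exact 95% limits for counting error only.

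Macrophages resident in islets make C1qa, C1qb and C1qc, the chains of the complement protein C1q, and carry Csf1r, the receptor that keeps them alive. Plasma cells secrete antibody, and each clone normally makes 1 heavy chain and 1 light chain. Jchain links antibody units into IgM and IgA polymers, Mzb1 is a chaperone of antibody assembly in the endoplasmic reticulum, Igha encodes the IgA heavy chain and Slpi is a secreted inhibitor of proteases. Macrophages also take up dead cells and debris, and a droplet can capture more than 1 cell.

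The deposited counts held 13859 barcodes for WT NOD and 10554 for the second library, with 93553185 and 98681133 UMIs. The filters left 12252 and 10214 barcodes with medians of 4269 and 5189 UMIs. The WT NOD library had Cxcl16 at 104 CPM (UMIs per 1000000, here of all genes), against 102 CPM in the library labelled NOD.Cxcl16-/-. The label of the latter is therefore not borne out by the level of its targeted gene, and no direction below is attributed to the genotype. Where the deletion lies relative to the sequenced end is not given in the sources used here. Barcode sequences common to both libraries numbered 45, none of them a member.

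Members were 0.188% (0.119 to 0.282) of the barcodes past the filters for WT NOD, against 0.715% (0.561 to 0.898) for the library labelled NOD.Cxcl16-/-. Of the 306 WT NOD barcodes that met the macrophage conditions, 7.52% (4.82 to 11.1) were members, against 12.0% (9.55 to 14.9) of 607 in the other library. Read from the plasma-cell side, they were 8.01% of the 287 barcodes with at least 10 Jchain UMIs in the former and 22.3% of 328 in the latter. The barcodes that met the macrophage conditions with Jchain under 10, which numbered 283 and 534, are called macrophage barcodes below. Plasma barcodes, 101 and 122, held at least 10 Jchain and 3 Mzb1 plus Xbp1 UMIs, fewer than 5 C1q UMIs, none of the 3 macrophage receptor genes and fewer than 3 Cd3d, Cd3e and Cd3g UMIs.

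Jchain counts among barcodes that met the macrophage conditions were mostly either absent or large. In the WT NOD library 237 of 306 held none, 35 held 1, 11 held 2 to 9, 2 held 10 to 99 and 21 held at least 100. The other library had 425 of 607 with none, 87 with 1, 22 with 2 to 9, 20 with 10 to 99 and 53 with at least 100. Few barcodes lay beside the threshold. With Jchain at 5 to 9 there was 1 barcode in each library, and with 10 to 14 there were 1 and 5. The highest Jchain count outside the members was 8 UMIs for WT NOD and 5 otherwise, and the lowest inside was 10 in both. At the C1q threshold, 2 and 3 barcodes with 3 to 4 UMIs lay outside, and 1 in each library with 5 to 6 lay inside. With no receptor UMI, 1 and 7 barcodes lay outside, while 1 and 10 members held exactly 1.

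The genes of the rule spread widely. C1q in the WT NOD members ran from 5 UMIs over a median of 139 to 431, and Jchain from 10 over 557 to 1846. The members of the library labelled NOD.Cxcl16-/- held 5, 114 and 773 C1q UMIs and 10, 346 and 4109 Jchain UMIs at the same 3 points. Receptor UMIs ran from 1 over 9 to 21 and from 1 over 8 to 36. C1qa, C1qb and C1qc lie side by side on chromosome 4 of the GRCm38 assembly (C1qa at 4:136895917-136898803, minus strand), and Jchain lies at 5:88519809-88527891 on the minus strand.

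**Figure D1:**
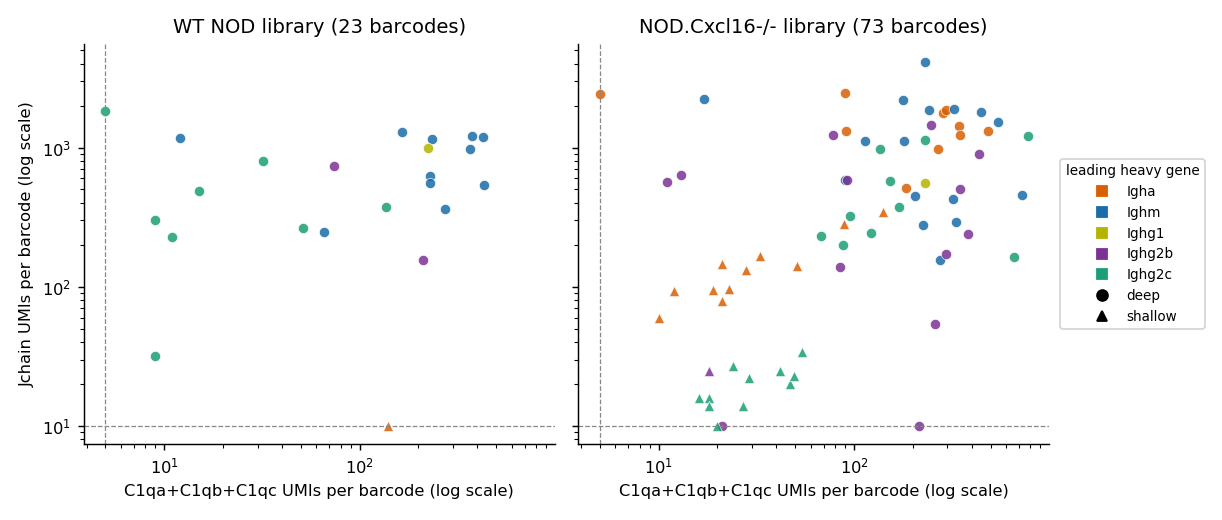
C1q UMIs (horizontal, log scale) against Jchain UMIs (vertical, log scale) for each of the 23 WT NOD members and the 73 members of the other library, coloured by leading heavy-chain gene, with dashed lines at the rule's minimums of 5 and 10 and triangles for shallow barcodes. Shallow members of the library labelled NOD.Cxcl16-/- sit low on both axes and are mostly led by Igha or Ighg2c.

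The label was checked against markers that the rule did not use. All 23 WT NOD members and all 73 others held Mzb1, at 1, 147 and 641 UMIs (lowest, median and highest) and at 1, 71 and 475. Slpi was present in 19 of 23, at 0, 26 and 821 UMIs, and in 72 of 73, at 0, 48 and 1661. Both genes thus varied widely between members. Igha did not mark the members as a whole, since it led in 1 WT NOD member and in 21 of 73 of the other library. On the macrophage side Lyz2, the lysozyme of myeloid cells, ran from 0 over 50 to 499 UMIs in WT NOD members and from 0 over 56 to 563 in the others. Apoe, a lipid carrier of tissue macrophages, ran from 0 over 7 to 390 and from 0 over 16 to 573. Lyz2 and Apoe were both at 0 in 3 deep WT NOD members, which held 5, 12 and 32 C1q UMIs beside 1846, 1180 and 807 Jchain UMIs. Both were also at 0 in a member of 35159 UMIs in the library labelled NOD.Cxcl16-/-, with 91 C1q and 1322 Jchain UMIs.

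Most members were far deeper than the barcodes of either type alone. WT NOD members held 3909, 76978 and 128827 UMIs (lowest, median and highest) and 1512, 7741 and 8860 genes. Members of the library labelled NOD.Cxcl16-/- held 2405, 53486 and 173459 UMIs and 1036, 6009 and 10138 genes. Macrophage barcodes had medians of 19143 and 18397 UMIs, and plasma barcodes of 6952 and 20430.5. The mean macrophage barcode and the mean plasma barcode added up to 43294.6 UMIs for WT NOD and 44052.5 in the second library, below the member means of 71061.2 and 55349.8. Over 40000 UMIs lay 18 of 23 members (78.3%) and 42 of 73 (57.5%), against 21.6% and 18.9% of macrophage barcodes and 2.25% and 3.24% of all barcodes past the filters.

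The median of the macrophage barcodes in each library separates shallow from deep members below, a division chosen after the values had been seen. It gave 1 shallow and 22 deep members for WT NOD, against 23 shallow and 50 deep in the second library. Thinned to 2000 UMIs each, members held medians of 953 and 949 genes, between the plasma barcodes at 578 and 692 and the macrophage barcodes at 1005 and 1022. Antibody genes made up a median of 8.34% and 14.4% of member UMIs, 42.8% and 35.0% of those of plasma barcodes, and 0.0305% and 0.0350% of those of macrophage barcodes. By this share, too, members lay between both types.

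The share of macrophage-rule barcodes that were members differed with depth, measured without antibody genes and Jchain so that those molecules do not add to it. In the WT NOD library members were 2.70% of the 37 barcodes under 5000 UMIs, 0 of 28 at 5000 to 10000, 2.35% of 85 at 10000 to 20000 and 2.60% of 77 at 20000 to 40000. Above that they were 20.4% (10.2 to 34.3) of 49 at 40000 to 80000 and 26.7% (12.3 to 45.9) of 30 beyond. The library labelled NOD.Cxcl16-/- gave 11.4% of 88, 11.0% of 82, 5.59% of 143 and 6.37% of 157 over the lower 4 bands. It gave 17.3% (10.6 to 26.0) of 104 and 54.5% (36.4 to 71.9) of 33 in the upper bands. Both libraries thus had their highest member shares above 40000 UMIs, and the library labelled NOD.Cxcl16-/- had a further set of shallow members.

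**Figure D2:**
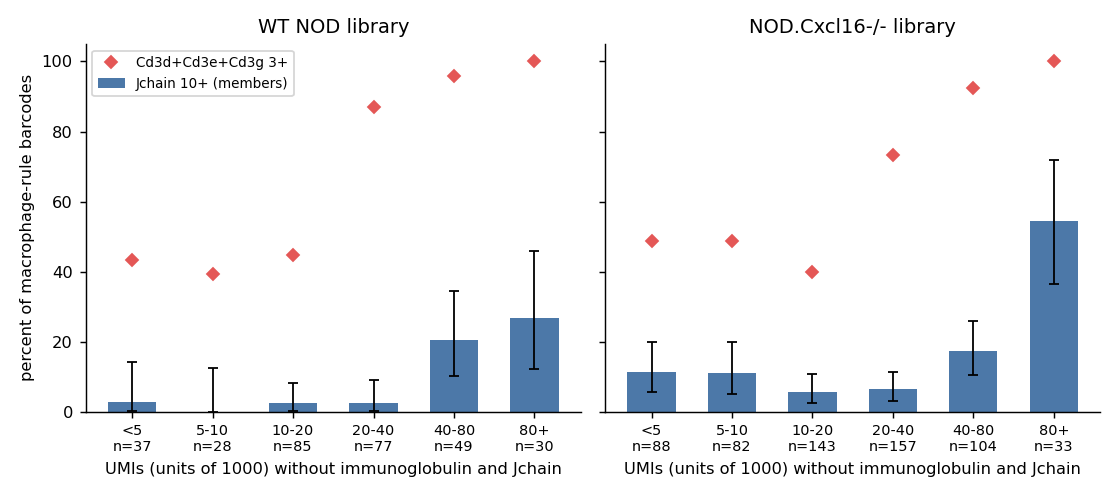
Share of macrophage-rule barcodes (percent, vertical) that were members (bars, with exact 95% counting limits) or held at least 3 Cd3d, Cd3e and Cd3g UMIs (diamonds), by UMIs without immunoglobulin and Jchain in units of 1000 (horizontal) in both libraries. The bars reach 26.7% and 54.5% and the diamonds 100% in the deepest band.

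T-cell transcripts were frequent in the deep members. Cd3d, Cd3e and Cd3g, the CD3 chains of the T-cell receptor complex, reached 3 UMIs in 18 of 22 deep WT NOD members (81.8%). The same held for 46 of 50 deep members (92.0%) and 14 of 23 shallow members (60.9%) of the library labelled NOD.Cxcl16-/-. Macrophage barcodes were also often so, 191 of 283 (67.5%) and 324 of 534 (60.7%). Over 40000 UMIs the T-cell share was 17 of 18 members (94.4%) against 60 of 61 macrophage barcodes (98.4%) for WT NOD, and 41 of 42 (97.6%) against 94 of 101 (93.1%) in the second library. Nearly all barcodes of that depth passed the minimum, so these shares cannot tell the classes apart. Plasma barcodes held at most 2 such UMIs, by their definition.

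Deep members without T-cell transcripts past this minimum were few, 4 of 22 and 4 of 50. The part that T-cell transcripts have in the depth of the members was not tested.

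Antibody heavy-chain constant genes showed a dominant isotype in nearly every member. Among the 22 WT NOD members with at least 10 heavy-chain constant UMIs, Ighm (IgM) led in 11, Ighg2c in 7, Ighg2b in 2, and Ighg1 and Igha in 1 each, the Ighg genes being those of IgG subclasses. Among the 73 others Igha and Ighg2c led in 21 each, Ighm in 16, Ighg2b in 14 and Ighg1 in 1. The leading gene took a median of 99.1% and 99.2% of a member's heavy-chain constant UMIs, and at least 90% in 20 of 22 and 63 of 73 members. This was close to plasma barcodes, at 99.4% and 99.6%, and above macrophage barcodes with enough such UMIs, at 79.7% (50 barcodes) and 76.7% (86 barcodes).

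The same can be stated as the chance that 2 heavy-chain constant UMIs of 1 barcode come from the same gene. It averaged 0.914 and 0.923 within members, but 0.403 and 0.241 when all member UMIs were pooled, so that different members carried different isotypes. Within macrophage barcodes the value was 0.641 and 0.643, against 0.596 and 0.533 pooled. Their few antibody UMIs were thus nearly as mixed within a barcode as across barcodes, and the members' were not.

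**Figure D3:**
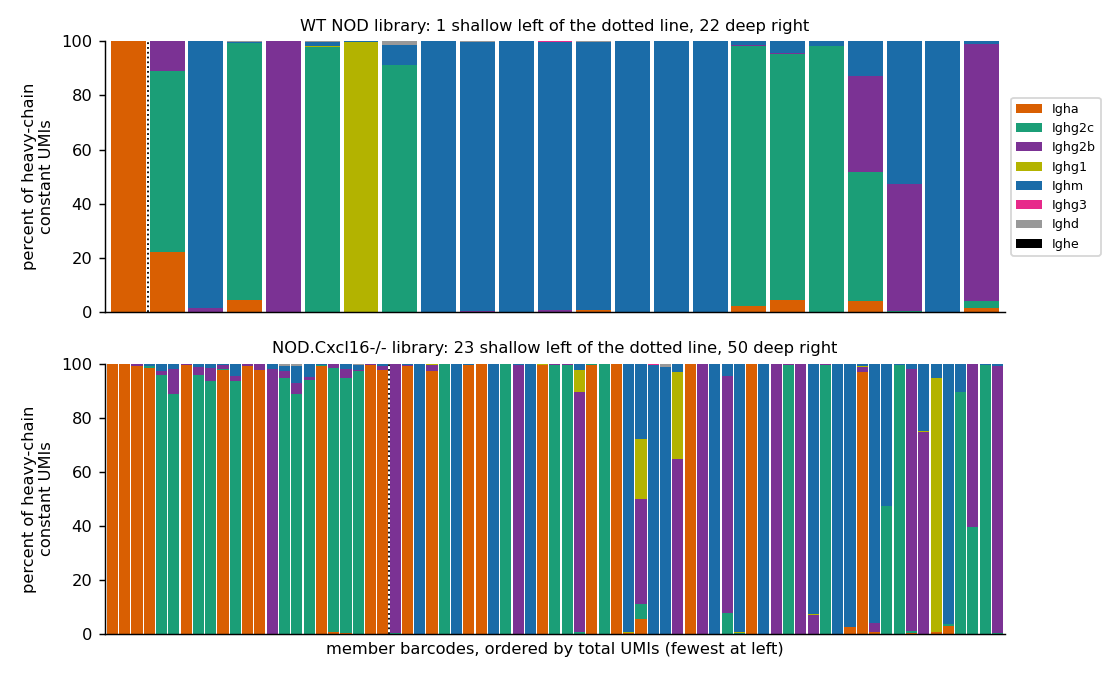
Percent of heavy-chain constant UMIs from each gene (stacked bars, vertical) for every member, ordered by total UMIs (horizontal, fewest at left), with a dotted line between shallow and deep members in each library. Nearly every bar is 1 colour, with medians of 99.1% and 99.2% for the leading gene, and all but 1 of the 23 shallow bars of the library labelled NOD.Cxcl16-/- are led by Igha or Ighg2c.

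Igha was 158 of the 34619 heavy-chain constant UMIs of WT NOD members, or 0.456% (0.388 to 0.533). It was 26915 of 116617, or 23.1% (22.8 to 23.3), in members of the library labelled NOD.Cxcl16-/-. Plasma barcodes had 4.40% and 18.9%, and were led by Igha in 12 of 100 and 17 of 120. The background can be read in barcodes with T-cell transcripts and neither C1q nor Jchain past the rule, where Igha was 2.28% and 4.36%. Ighm was 57.8% of the WT NOD members' heavy-chain UMIs and 23.1% of the others', against 73.4% and 71.0% in those T-cell barcodes and 76.2% and 71.4% in macrophage barcodes. Ighd, the IgD gene of B cells that have not switched, was 0.0549% and 0.0317% in members but 9.16% and 5.99% in macrophage barcodes. Members therefore carried a different isotype mixture from the antibody UMIs of macrophage and T-cell barcodes in the same library. By definition members held at least 10 Jchain UMIs and both of those classes fewer. The difference can follow from that rule, and nothing is read from it about the source of the members' antibody transcripts. Ighe, the IgE gene, was listed at 0 in members of both libraries.

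A minority of members held a pair of isotypes at comparable levels. A WT NOD member of 106105 UMIs had 2448 Ighm and 2197 Ighg2b UMIs. Another of 101363 UMIs had 103 Ighg2c UMIs, 47.5% of its total, beside 77 of Ighg2b. The library labelled NOD.Cxcl16-/- had members with 1295 Ighm and 1172 Ighg2c, with 2696 Ighg2b and 1772 Ighg2c, and with 2497 Ighg2b and 831 Ighm UMIs. All of these were deep barcodes. The lowest leading share, 38.9%, came from a member with 10 Jchain UMIs and only 18 heavy-chain constant UMIs spread over 5 genes.

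Variable genes gave the same picture for the heavy chain. The chance that 2 Ighv UMIs of 1 barcode named the same gene averaged 0.921 over 17 WT NOD members with at least 5 such UMIs and 0.936 over 62 others, against 0.275 and 0.118 pooled over members. Plasma barcodes had 0.951 and 0.963. For kappa light-chain variable genes the averages were 0.773 (18 members) and 0.741 (48 members), against 0.769 and 0.773 in plasma barcodes. The heavy-chain and kappa genes of a member were thus about as uniform as those of a plasma barcode. The measure on kappa genes alone was chosen after seeing the data. Taken with the lambda genes, as first planned, the light-chain values were lower. They were 0.667 and 0.496 in members, against 0.567 and 0.541 in plasma barcodes. There Iglv1 led in 10 of 22 and 32 of 61 members although lambda constant UMIs were under 10% of the light-chain constant total in 9 and 31 of them. It led in 32 of 65 and 26 of 81 plasma barcodes, with lambda under 10% in 32 and 24 of them. The Iglv1 count is therefore not read as lambda use. Kappa made up a median of 98.3% and 98.8% of light-chain constant UMIs in members.

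Naming each member with at least 1 Ighv UMI by its leading constant gene and leading Ighv gene gave 14 different combinations among 20 WT NOD members and 29 among the 73 others. With at least 5 Ighv UMIs there were 14 among 17 and 26 among 62, and no WT NOD combination occurred in more than 2 members. By contrast, 22 of the 23 shallow members of the library labelled NOD.Cxcl16-/- had 1 of 2 combinations, Igha with Ighv1-53 in 11 and Ighg2c with Ighv3-6 in 11. Of these, 9 and 10 held at least 5 Ighv UMIs. The remaining shallow member, of 6892 UMIs, had Ighg2b with Ighv6-3. Ighv1-53 lies at 12:115158403-115158835 and Ighv3-6 at 12:114288152-114288582, both on the minus strand of GRCm38, with Igha at 12:113254830-113260236 and Ighg2c at 12:113285325-113288932.

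Barcode sequences are shown for the closest pair in each set, because barcodes that differ at few bases can come from 1 barcode by read error. Capitals stand at the bases that differ within the pair. Barcodes within the Igha set differed at 8 to 15 of 16 bases (median 12), and within the Ighg2c set at 6 to 15 (median 12). No pair in either set differed at fewer than 6 bases.
Igha with Ighv1-53, 6446 UMIs: caAGAGgCAttgaaGA
Igha with Ighv1-53, 4938 UMIs: caGTGCgAGttgaaTG
Ighg2c with Ighv3-6, 5877 UMIs: tACggtaCAgGtagtG
Ighg2c with Ighv3-6, 5322 UMIs: tCAggtaGTgAtagtA
The Igha pair held 33 and 19 C1q, 167 and 95 Jchain and 217 and 157 Igha UMIs. The Ighg2c pair held 27 and 18 C1q, 14 and 14 Jchain and 60 and 59 Ighg2c UMIs, and neither of them held any Igha.

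The 11 barcodes of the Igha set differed in size but not much in composition. They held 2405, 5673 and 18109 UMIs (lowest, median and highest), 10, 23 and 140 C1q UMIs, 60, 131 and 346 Jchain UMIs and 62, 157 and 545 Igha UMIs. Per 10000 UMIs of the barcode the ranges narrowed to 31.8 to 77.3 for C1q, 150 to 259 for Jchain and 209 to 384 for Igha. Lyz2 ran from 50.4 to 91.5 per 10000 and the insulin genes Ins1 and Ins2 together from 49.7 to 106. Every barcode of the set thus held C1q, lysozyme, insulin and IgA transcripts in similar proportions. The CD3 genes had 0, 5 and 13 UMIs and Mzb1 1, 2 and 15.

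The 11 barcodes of the Ighg2c set had another composition, again alike among themselves. They held 4169, 7012 and 14049 UMIs, 16, 27 and 54 C1q UMIs, 10, 20 and 34 Jchain UMIs and 48, 88 and 175 Ighg2c UMIs. Per 10000 UMIs, C1q ran from 24.2 to 56.7, Jchain from 18.0 to 34.5 and Ighg2c from 102 to 163. Lyz2 was at 0 to 6 UMIs and Ins1 with Ins2 at 1 to 4, below the lowest values of the Igha set, 22 and 13. Jchain did not overlap between the sets either, while C1q and Apoe (2 to 35 UMIs here, 2 to 42 there) did. Per 100 UMIs of the kappa constant gene Igkc, Mzb1 stood at 0.440 in the Igha set and 1.18 in the Ighg2c set.

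Similarity over all other genes was measured as the observed variance between a pair of barcodes over that of random draws from 1 common profile, after thinning both to the same size and leaving out antibody, Jchain and rule genes. A value of 1 means that both differ by counting noise alone. The median over the 55 pairs of the Igha set was 1.20 (0.879 to 1.68) and over the 55 pairs of the Ighg2c set 1.06 (0.776 to 1.78). Shallow members with different heavy-chain genes had a median of 1.59 over 143 pairs. Deep members had 1.48 over 46 pairs with the same genes and 1.58 over 1179 pairs with different genes. Shallow macrophage barcodes of the same library had 2.02 over 35511 pairs. The shallow sets therefore varied among themselves by little more than counting noise, less than deep members that had the same heavy-chain genes. Members of a set are not independent observations in the counts above. With each set counted as 1, the library labelled NOD.Cxcl16-/- had 53 members.

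**Figure D4:**
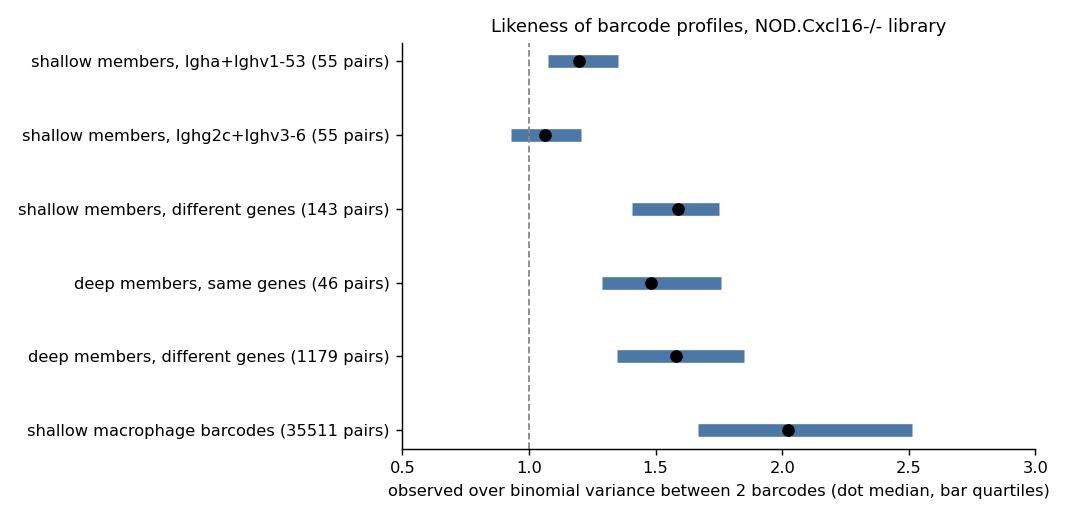
Observed over binomial variance between pairs of barcodes (horizontal; dot for the median, bar for the quartiles, dashed line at counting noise) in the library labelled NOD.Cxcl16-/-, for 6 kinds of pair (vertical). The Igha set and the Ighg2c set, with medians of 1.20 and 1.06, lie nearest to the line, and pairs of shallow macrophage barcodes, at 2.02, farthest from it.

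The same combinations were sought outside the shallow members. Igha with Ighv1-53 occurred in 1 deep member (29111 UMIs, 184 C1q and 510 Jchain UMIs), in no plasma barcode and in 3 shallow barcodes of neither class, whose median variance ratio to the set was 1.29. Ighg2c with Ighv3-6 occurred in 8 deep members of 35494 to 130431 UMIs, in 23 shallow and 9 deep plasma barcodes, and in 27 shallow and 9 deep barcodes of neither class. Their median variance ratios to the set were 1.55, 1.62, 3.57, 1.35 and 1.86 in that order, with 21 of the 23 and 25 of the 27 large enough for the measure. Only the Ighg2c combination was thus also found in plasma barcodes, which held fewer than 5 C1q UMIs by definition. That class also needs at least 3 Mzb1 plus Xbp1 UMIs and fewer than 3 CD3 UMIs. The Igha set had medians of 2 Mzb1, 1 Xbp1 and 5 CD3 UMIs, so the class rule largely left out barcodes of its kind. Nothing is read from its absence there. The 3 barcodes of neither class with the Igha combination held 0 to 32 C1q UMIs.

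The lone shallow WT NOD member stood apart from all of these. Of its 3909 UMIs, 139 were C1q, 151 Apoe and 122 Lyz2, while Jchain stood at the minimum of 10 and Igkc at 60. All 33 of its heavy-chain constant UMIs were Igha. It held 1 Mzb1 and 2 Xbp1 UMIs and no Slpi or CD3 UMI, and 3.73% of its UMIs were mitochondrial, the highest among the WT NOD members, whose median was 0.990%.

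For the gene mixture, UMIs were summed over members and over macrophage barcodes, scaled to CPM of all UMIs outside antibody genes and Jchain, and compared at a 2-fold limit after adding 1 CPM. Of the genes with enough UMIs, 2.93% were at least 2-fold higher and 3.01% at least 2-fold lower in WT NOD members (285 and 292 of 9713). In the library labelled NOD.Cxcl16-/- 2.46% were higher and 1.46% lower (264 and 157 of 10728). With CPM over all UMIs, antibody included, the counts were 189 higher and 465 lower in WT NOD members and 153 and 367 in the others. The median log2 ratio over all these genes was -0.03 and 0.01. Since Jchain chose the members, the plasma-cell genes below are listed for their levels, and nothing is read from their counts against these shares.

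Of 20 genes of the plasma-cell secretory machinery, 15 were at least 2-fold higher in WT NOD members and 13 in the others, with median log2 ratios of 1.53 and 1.67. Mzb1 was at 2724 CPM (2639 to 2810) in WT NOD members against 32.6 in macrophage barcodes, a log2 ratio of 6.34. It was at 2454 CPM (2402 to 2507) against 37.4 in the other library, a log2 ratio of 6.0. Xbp1, the transcription factor that expands the secretory apparatus, was at 344 against 63.3 CPM and 428 against 70.3 CPM, log2 ratios of 2.42 and 2.59. Derl3, which helps remove misfolded proteins, had log2 ratios of 4.67 and 5.18, and the disulphide enzyme Txndc5 3.97 and 3.67. Outside this list, Fkbp11, a folding enzyme of secretory cells, had 5.51 and 5.48. Secretory genes with broader use were closer to macrophage barcodes, such as Hsp90b1 at 1.97 and 1.81. Slpi was at 1995 CPM (1922 to 2069) against 34.4 and at 5089 CPM (5013 to 5165) against 63.3, log2 ratios of 5.82 and 6.31.

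Genes of plasma-cell identity were at least 2-fold higher in 5 of 13 tested in WT NOD members and 7 of 15 in the others, with medians of 0.94 and 1.00. Sdc1, the syndecan that marks plasma cells, had a UMI in 19 of 23 and 47 of 73 members and log2 ratios of 4.08 and 4.22. Tnfrsf17, the BCMA receptor for plasma-cell survival signals, had 76 UMIs in 27 of 73 members and none in macrophage barcodes of the library labelled NOD.Cxcl16-/-, at least 98.1-fold higher against a floor of 3 counts over the group. Eaf2 had log2 ratios of 4.66 and 4.24 and Pou2af1, a coactivator of antibody genes, 3.03 and 3.07. The regulators Irf4 and Prdm1, which are also used outside plasma cells, had 0.99 and 0.99 and 0.46 and 0.41 and did not reach 2-fold. Transcripts of surface and nuclear proteins were thus present beside those of antibody and its chaperones.

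**Figure D5:**
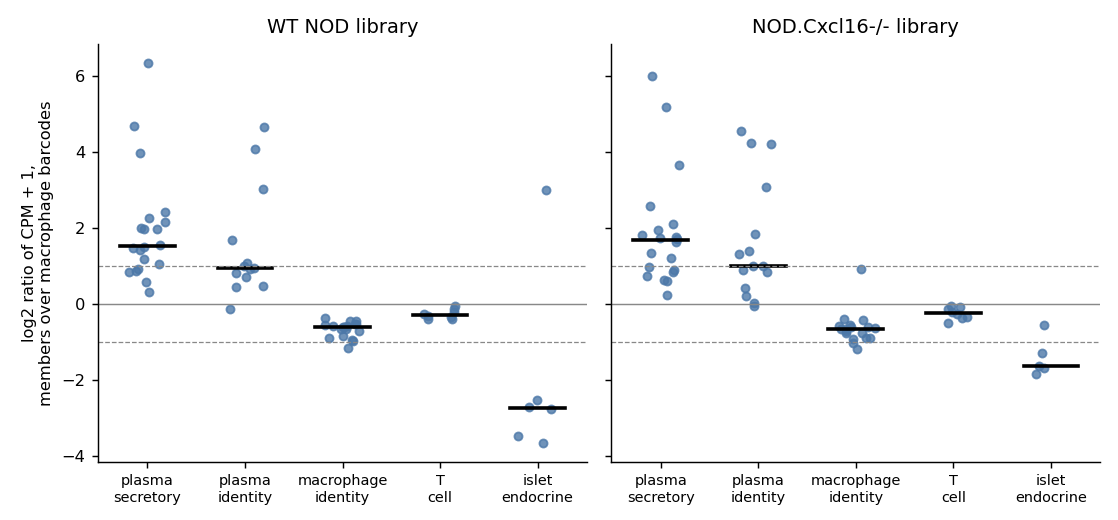
Log2 ratio of CPM + 1 in members over macrophage barcodes (vertical) for each tested gene of 5 lists (horizontal) in both libraries, with black bars at the medians, a solid line at 0 and dashed lines at 2-fold. Secretory genes have medians of 1.53 and 1.67, macrophage genes -0.60 and -0.65, T-cell genes -0.30 and -0.24 and islet hormone genes -2.75 and -1.62.

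Macrophage genes outside the rule were lower on the CPM scale in members than in macrophage barcodes, by an amount that moved with the comparison. Of 18, 1 was at least 2-fold lower in WT NOD members, Lyz2, at 1787 against 4002 CPM and a log2 ratio of -1.16. In the library labelled NOD.Cxcl16-/- 2 of 18 were at least 2-fold lower. Trem2, a lipid receptor, had -1.19 there. The list medians were -0.60 and -0.65. With both classes limited to barcodes over 40000 UMIs they were 0.06 and -0.26. Against macrophage barcodes without T-cell or B-cell transcripts past the minimum they were -1.57 and -1.36, with 15 of 16 and 15 of 18 genes at least 2-fold lower. Of all genes tested in that comparison, 603 of 5569 and 623 of 8323 were so, and their median log2 ratio was 0.28 in both libraries. With CPM over all UMIs, 5 and 7 of the 18 macrophage genes were at least 2-fold lower, beside 465 of 9713 and 367 of 10728 of all genes. Apoe had log2 ratios of -0.98 and -0.77. Members rich in C1q but nearly without Apoe occurred at about the frequency seen in macrophage barcodes. Among those with at least 100 C1q UMIs, 4 of 13 WT NOD members (30.8%) held at most 2 Apoe UMIs against 45 of 140 macrophage barcodes (32.1%), and 7 of 37 (18.9%) did against 79 of 302 (26.2%) in the other library.

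Genes by which macrophages take up and break down material were not 2-fold higher in members on the CPM scale. They had more UMIs per barcode, but members were also deeper. No tested gene of 15 lysosomal genes, 10 antigen-presentation genes, 8 Fc receptors or 13 uptake receptors was at least 2-fold higher in either library. Lysosomal genes summed to 199.9 UMIs per member and 135 per macrophage barcode in the WT NOD library, and to 173 and 132 in the second. As CPM they summed to less in members, 3174 against 4651 and 3714 against 5363. T-cell genes, too, had more UMIs per member, 107 against 61.8 and 70.4 against 43.6. A higher count per barcode is therefore not read as a trait of these lists. Fc receptors had 64.5 against 42.6 and 52.5 against 43.3, and uptake receptors 11.3 against 7.79 and 12.7 against 8.74. The lysosomal medians on the log2 CPM scale were -0.49 and -0.48 and the antigen-presentation medians -0.39 and -0.61. Fc receptors, which bind antibody, were 2-fold lower in 1 of 8 and 0 of 8, and receptors for dead cells and debris in 3 of 13 and 1 of 13. Mertk, a receptor for dying cells, had log2 ratios of -0.55 and 0.91, the latter from 50 UMIs in 16 members. Marco and Cd163, a pair of scavenger receptors, were listed at 0 in members of both libraries.

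Interferon-induced genes were at least 2-fold lower in 4 of 12 and 3 of 11, with medians of -0.71 and -0.86. Of all tested genes, 292 of 9713 and 157 of 10728 were so. The macrophage genes above had medians of a similar size, -0.60 and -0.65, which moved with the comparison. Whether the interferon values differ from that general lowering was not tested. Among them were Cxcl9, a chemokine for T cells, at -1.19 in WT NOD members, and Ifit1 at -1.61 in the others. Ligands known to act on plasma and B cells were lower in 3 of 6 in WT NOD members (Tnfsf13 at -1.12, Tnfsf13b at -1.02 and Cxcl13 at -1.84) and in 0 of 6 in the others. Cxcl13, which attracts B cells, lay in few barcodes. It had 311 UMIs in 7 of 23 members, 155 of them in 1, and 1263 in 16 of 73, 405 of them in 1, where the log2 ratio was 0.72. A few barcodes thus set the Cxcl13 level of each library.

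As CPM summed over barcodes, islet hormone transcripts, the products of endocrine cells, were at least 2-fold lower for 5 of 6 genes in WT NOD members and 4 of 5 in the others. With both classes over 40000 UMIs, 3 of 6 and 3 of 5 were lower and 1 higher in each library, with medians of -0.84 and -1.12. The median barcode did not hold less Ins2. It had 1 UMI in WT NOD members against 0 in macrophage barcodes, and 9 against 3 in the other library. Single macrophage barcodes held up to 2417 and 2590 Ins2 UMIs. Ins2, the main insulin gene of the mouse, had log2 ratios of -2.72 and -1.62, and Iapp, the amyloid peptide released with insulin, -2.77 and -1.69. The glucagon gene Gcg had -3.48 and -1.29, and with both classes over 40000 UMIs its ratio in the library labelled NOD.Cxcl16-/- was 1.21. Ppy, the pancreatic polypeptide gene, was the exception in WT NOD members at 2.98, but all 70 of its UMIs lay in 1 member. Within the library labelled NOD.Cxcl16-/- hormone transcripts summed to 4998 CPM in shallow members and 1016 in deep members, against 3620 in macrophage barcodes. The shallow value came mostly from the Igha set, which held 620 Ins1 and Ins2 UMIs against 25 in the Ighg2c set. It is therefore not a trait of shallow members in general.

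Cell-cycle genes were at least 2-fold higher in 6 of 8 in WT NOD members and 1 of 8 in the others, with medians of 1.14 and 0.78. Top2a, which untangles DNA, had 1.14 and 0.85, and Ccnb1, the cyclin of mitosis, 1.24 and 1.52. With both classes over 40000 UMIs the counts were 0 of 8 and 1 of 8, and the medians 0.59 and 0.34. Depth therefore moved with this list. T-cell genes were 2-fold apart in 0 of 8 in both libraries. The neutrophil genes S100a8, S100a9 and Retnlg were listed at 0 in all members. Monocyte genes were 2-fold apart in 0 of 4 and 1 of 4 and dendritic-cell genes in 0 of 7 and 1 of 8.

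In absolute UMIs per barcode, members held more than the sum of a mean macrophage and a mean plasma barcode. For each secretory gene the member mean less the macrophage mean was expressed as a percent of the plasma mean, so that the plain sum of both gives 100%. The median over 20 genes was 213% (149 to 365 over genes) for WT NOD and 123% (103 to 147) otherwise, and all 20 genes exceeded 100% in both. Against the 34 and 66 plasma barcodes as deep as the median macrophage barcode the medians were 102% and 76.5%, and with shallow members also left out 107% and 119%. Shallow members of the library labelled NOD.Cxcl16-/- had a median of -13.5% against all plasma barcodes, with each of the 20 genes under 50%. Macrophage genes reached 143% and 156% of the macrophage mean in deep members after the plasma mean was taken off, and 16.2% in those shallow members. The macrophage mean is that of all macrophage barcodes, shallow included. Deep members thus had list medians over 100% of either mean, and the shallow members of the library labelled NOD.Cxcl16-/- held a small part of either mean. Members were divided by total UMIs, so these high and low values in part restate that division. As CPM, secretory genes summed to 9264 in those shallow members, against 5170 in macrophage barcodes and 39110 in plasma barcodes. Macrophage genes summed to 12373 CPM in them, against 13415 in macrophage barcodes and 935 in plasma barcodes.

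The members' plasma-cell genes can also be compared with deep plasma barcodes one by one. Jchain had medians of 593 and 612.5 UMIs in deep members against 1184.5 and 722 in deep plasma barcodes. Mzb1 had 161 and 124 against 104 and 143, and Slpi 30.5 and 152 against 103.5 and 90.5. Antibody UMIs had 6038 and 12549 against 13770 and 12529. WT NOD members were thus below deep plasma barcodes in Jchain, antibody and Slpi but not in Mzb1, and in the other library the medians lay closer. C1q had medians of 150.5 and 228 UMIs against 202.5 and 216 in deep macrophage barcodes.

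Mzb1 stood at 25.3 (24.5 to 26.1) and 16.6 (16.2 to 16.9) UMIs per 100 Jchain UMIs summed over members, and at 14.2 and 19.6 over plasma barcodes. Both classes were chosen with the same Jchain minimum. By these sums, members held more Mzb1 per Jchain than plasma barcodes in the WT NOD library and less in the second. Single barcodes ran from 2.96 to 137 in deep WT NOD members and from 2.16 to 2200 in those of the second. The WT NOD median was 18.3 in deep members, 7.51 in deep plasma barcodes and 25.4 in shallow plasma barcodes. In the second library the quartiles were 5.84 and 61.2 in deep members and 6.55 and 87.3 in deep plasma barcodes. The direction of the sums is therefore not read as a trait of single members.

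Few genes were higher in members than in both macrophage and plasma barcodes. Past 2-fold over the higher of both were 30 of 4175 genes with at least 50 UMIs in WT NOD members and 4 of 6854 in the others. WT NOD examples were histone genes such as Hist1h1b (1.90 in log2 over macrophage barcodes) and Hist1h2ap (2.11), and Ect2 (1.65), which acts in cell division. Gm20730, annotated as a light-chain variable gene but kept here since its symbol is not an antibody gene name, led this set with 169 UMIs, all in 1 member and none in macrophage or plasma barcodes. Dhdh led in the library labelled NOD.Cxcl16-/- at 1.65, with 66.1% of its UMIs in 1 member. Single members thus accounted for several leading genes.

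Other genes far above macrophage barcodes were Prg2 (6.08 and 5.52) and Ly6k (3.60 in 2 of 23 members and 4.18 in 14 of 73). In the library labelled NOD.Cxcl16-/- Ccr10, a homing receptor of IgA-secreting plasma cells, had 87 UMIs in 30 of 73 members against 1 in macrophage barcodes (log2 ratio 4.63). Gm30211 (6.21 and 6.31) is a noncoding RNA at 6:70719074-70740554 on the plus strand, a span that contains Igkc at 6:70726435-70726966 on the same strand. How reads were assigned between both genes was not tested. At the other end, Saa3, an acute-phase protein, had no UMI in WT NOD members against 133 in macrophage barcodes, at least 7.82-fold lower by the same floor. In macrophage barcodes 80.5% of those UMIs lay in 1 barcode. Clu was lowest in the library labelled NOD.Cxcl16-/-, at -2.45 from 2 against 101 UMIs, 57.4% of the latter in 1 barcode.

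Cxcl16, the labelled target, was present in members of both libraries. It stood at 250 CPM (227 to 276) of all UMIs in WT NOD members and 149 CPM (137 to 161) in the others, against 396 and 294 CPM in macrophage barcodes. Plasma barcodes of the WT NOD library had none, and those of the second library 31.6 CPM. Members of both libraries thus lay between macrophage and plasma barcodes in Cxcl16.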

How the data were processed

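The authors deposited a matrix of UMI counts per gene and barcode for each library, made with Cell Ranger 7.0.1 on mm10, per the submitters' processing notes. These raw counts were analysed with Python 3.11.15, NumPy 2.4.6, SciPy 1.17.1, pandas 2.3.3 and Matplotlib 3.10.9. Barcodes needed at least 500 genes and at most 10% mitochondrial UMIs. Depth was 93553185 and 98681133 UMIs. The members, the comparison classes and the gene lists were chosen with earlier results of these data known. With 1 library per group no test between groups was made, and cells are not replicates. Shares have exact Clopper-Pearson and summed counts exact Poisson 95% intervals, which cover counting error only. CPM were taken over UMIs outside immunoglobulin genes and Jchain, except for Cxcl16, and compared with 1 CPM added, at 2-fold, in genes with at least 50 UMIs in members and macrophage barcodes together. Doublets were neither scored nor removed, since such mixtures are the subject. Heavy-chain constant genes were named with at least 10 UMIs, and agreement of light-chain variable genes needed at least 10 UMIs and of heavy-chain variable genes at least 5. Heavy-chain combinations needed at least 1 variable-gene UMI. Genes named were those of the rule, of fixed lists and of rankings. The rankings were the 15 highest and 10 lowest ratios to macrophage barcodes, and the 10 highest over both macrophage and plasma barcodes. Immunoglobulin genes, by symbol, and the genes of the rule were left out of every ranking. Coordinates are from GENCODE vM21 on GRCm38. The scripts were tested on simulated data. Alternatives changed the thresholds, scaling, filters, comparison classes and depth. Some genes of the lists are not reported here.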

Additional observations from a re-analysis of the deposited data

How the results depend on the processing

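No paired analysis was possible because each group was 1 library without replicate numbers, and for the same reason no library could be left out. The number of members stayed between 17 and 24 in the WT NOD library and between 50 and 74 in the library labelled NOD.Cxcl16-/- under other minimums of the rule, other filters and without shallow members. The median depth (76978 and 53486 UMIs) ran from 68494 to 78088 and from 38568 to 60982.5 under other settings. The light-chain agreement (0.667 and 0.496) ran from 0.633 to 0.773 and from 0.494 to 0.741. Both upper values came from kappa variable genes alone. Mzb1 per 100 Jchain UMIs (25.3 and 16.6) was 25.3 and 16.9 without shallow members. The Igha share of heavy-chain UMIs (0.456% and 23.1%) was 5.35% and 28.7% as a mean per barcode and 0.364% and 23.4% with at least 50 Jchain UMIs. It was 0.361% and 21.7% without shallow members, and 22.7% with at least 20 C1q UMIs in the latter library. Recovery of secretory genes was 102% and 76.5% against deep plasma barcodes, 107% in the WT NOD library with shallow members also left out, and 190% without shallow members in the other. Genes 2-fold higher and lower (285 and 292 in WT NOD members) were 189 and 465 with CPM over all UMIs, 699 and 556 with the mean CPM per barcode, 719 and 776 without a filter, and 124 and 72 with at least 200 UMIs. They were 998 and 603 against macrophage barcodes without T-cell or B-cell transcripts, and 146 and 148 with both classes over 40000 UMIs. For the library labelled NOD.Cxcl16-/- (264 and 157) the same settings gave 153 and 367, 541 and 396, 476 and 277, 125 and 67, 1177 and 623, and 169 and 67. The share of higher genes among these, 49.4% and 62.7%, was 28.9% and 29.4% over all UMIs, where the median of all genes shifted to -0.19 and -0.23. It was 63.3% and 62.3% in WT NOD members with at least 200 UMIs and without T-cell or B-cell transcripts, the median of all genes in the latter being 0.28 in both libraries. The share of macrophage-rule barcodes with T-cell transcripts (68.3% and 63.3%) was 30.2% and 27.6% after thinning to 2000 UMIs, and 58.3% with a minimum of 5 UMIs in the library labelled NOD.Cxcl16-/-. The Gcg ratio there reversed to 1.21 with both classes over 40000 UMIs. The cause was not tested for any of these. Settings that left out shallow members, used deep plasma barcodes or set the limit of 40000 UMIs were chosen after seeing the data. So were the use of kappa variable genes alone and the count with each shallow set taken as 1. Thinned to 2000 UMIs the number was far lower. There, 1 of 106 WT NOD macrophage-rule barcodes (0.943%) and 14 of 294 others (4.76%) still met the rule, with 2756 and 696 barcodes left out as too shallow.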
